A study of Mus musculus with 15 samples.

Results

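The 60 genes described here encode the enzymes that conjugate drugs, hormones and toxic products in the liver. They were chosen from a list of 23509 genes by a rule on symbols that uses no measured value. Earlier results of these data were known when they were chosen. The 19 Ugt genes (UDP-glucuronosyltransferases of families 1a, 2a, 2b and 3a), 18 Sult genes (cytosolic sulfotransferases) and 23 Gst genes (soluble glutathione S-transferases of the alpha, kappa, mu, omega, pi, theta and zeta classes) were taken, with pseudogenes left out. Each enzyme attaches a water-soluble group to a molecule so that it can be carried out of the cell in bile or blood. UGT enzymes transfer glucuronic acid from UDP-glucuronic acid, SULT enzymes transfer sulfate from the donor PAPS, and GST enzymes attach the tripeptide glutathione to reactive electrophiles, including the aldehydes formed when membrane lipids are oxidised. In the liver these enzymes are made mainly by hepatocytes, and many are known to be inducible by foreign compounds or to differ between male and female mice.

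The data were bulk RNA-seq of 15 livers from male mice on a C57BL/6 background, given in the labels as 8 to 10 weeks old. The ethanol-fed groups held 5 wild-type (WT) and 4 Aldh2-/- libraries. Pair-fed mice gave 3 WT and 3 Aldh2-/- libraries. Aldh2 encodes the mitochondrial enzyme that oxidises acetaldehyde, the first product of ethanol, to acetate. By the sample annotation all 4 groups also received carbon tetrachloride (CCl4), a hepatotoxic solvent used to produce fibrosis in mice. It was dissolved in olive oil and injected into the peritoneum 2 times per week over 8 weeks, with tissue taken 24 h after the final dose. Titles of the ethanol samples name CCl4 and those of the pair-fed samples do not. If pair-fed mice had not received it, ethanol and CCl4 could not be told apart in the diet comparisons and the interaction. No mice without CCl4, by the annotation, were analysed here. WT mice are described only as C57BL/6, and the labels do not say whether they were littermates. The labels do not state that libraries came from separate mice, so the p-values measure the spread between these libraries.

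Values were FPKM (fragments counted on a gene, scaled to its length and to the size of the library), in 1 table per diet. Diet therefore coincides with the table, and an offset between tables cannot be told apart from an effect of ethanol. The genotype comparisons lie within 1 table and do not hold such an offset. Of the comparisons that use both tables, it cancels only in the interaction, the genotype difference under ethanol minus that under pair-feeding. For low genes an offset that multiplies FPKM cancels there only in part, since values were taken as log2(FPKM + 1). Relative depth ran from 90.0% to 111% of the mean. Aldh2 checked the genotype labels: it read 277 to 309 FPKM in pair-fed WT and 6.57 to 6.90 in pair-fed Aldh2-/- livers, and 544 to 688 in ethanol WT against 8.82 to 11.5 in ethanol Aldh2-/- livers. The difference of mean log2 values was -5.81 under ethanol (exact permutation test, two-sided, p = 0.00794) and -5.23 under pair-feeding (exact p = 0.1, the smallest that 3 against 3 allows). The share of FPKM from 13 mitochondrially encoded genes was 15.2% to 24.2% in pair-fed WT livers, against 6.90% to 10.8% in pair-fed Aldh2-/- livers. Under ethanol the highest shares were in WT 5 (13.6%) and Aldh2-/- 90 (18.2%). Hepatocyte markers (Alb, Ttr and 5 others) were abundant in all libraries. Their summed FPKM was 65858 to 82683 in ethanol WT and 54940.1 to 65446 in ethanol Aldh2-/- livers, with a median log2 difference of -0.17 over the 7 genes. Against 21.5% of all genes called higher, markers of other cells rose in ethanol Aldh2-/- livers. All 8 macrophage markers did, with summed FPKM of 146 to 201 in WT and 403 to 794 in Aldh2-/- livers, and so did all 7 endothelial markers (32.6 to 70.9 against 76.4 to 115), 6 of 8 stellate and myofibroblast markers (24.5 to 48.0 against 47.0 to 83.0), 4 of 7 tested cholangiocyte markers (57.9 to 186 against 167 to 310) and 5 of 5 red blood cell markers (196 to 623 against 777 to 2389). Under pair-feeding 6 of 8 periportal hepatocyte markers were lower in Aldh2-/- livers, with summed FPKM of 3709 to 4803 in WT and 2075 to 2932 in Aldh2-/- livers. Under median-ratio and quantile scaling 6 and 4 of the 8 were lower (3.4% and 3.12% of all genes). Of the 7 general hepatocyte markers, 2 were lower there with each scaling, and 1 was higher under quantile scaling. Summed markers of other cells were also higher in pair-fed Aldh2-/- than in pair-fed WT livers without overlap, namely macrophage (114 to 174 in WT, 217 to 325 in Aldh2-/-; 3 of 8 called higher), cholangiocyte (70.0 to 118 against 148 to 255; 1 of 6 tested) and stellate and myofibroblast markers (38.7 to 76.4 against 85.9 to 105; 1 of 8). Over all genes 26.0% were called higher and 2.41% lower between the pair-fed genotypes. Under median-ratio or quantile scaling limma called 0 markers of these 3 cell types. At an unadjusted p under 0.05 with either scaling, 2 macrophage, 1 cholangiocyte and 1 stellate marker were higher and 2 stellate markers lower. Between diets, ethanol Aldh2-/- livers had 7 of 7 endothelial, 6 of 8 macrophage, 6 of 8 periportal and 5 of 7 tested pericentral hepatocyte markers higher than pair-fed Aldh2-/- livers, the last 2 with median log2 differences of 1.44 and 1.80. Of the 7 general hepatocyte markers 3 were higher and 3 lower there. Over all genes 17.6% were called higher and 29.3% lower in that comparison. In WT livers ethanol raised 4 of 7 tested pericentral and 3 of 8 periportal markers and lowered 4 of 8 stellate and myofibroblast markers. Of the 7 general hepatocyte markers it raised 1 and lowered 3 (2 and 1 under quantile scaling). Over all genes 29.2% were called higher and 11.9% lower between the WT diets. In bulk RNA, fewer cells of a type and less RNA per cell cannot be told apart, and the part that these markers, the mitochondrial share or the scaling play in the results below was not tested except where a rescaled value is given.

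The families differed in level. The 23 Gst genes held 0.584% to 1.07% of all FPKM, and their sum was 3825 ± 196 (SD) in pair-fed WT, 3608 ± 208 in pair-fed Aldh2-/-, 4993 ± 940.4 in ethanol WT and 4894 ± 639 in ethanol Aldh2-/- livers. The Ugt genes summed to 624 ± 60.4, 668 ± 65.1, 903 ± 105 and 552 ± 129 in the same order. The Sult genes summed to 186 ± 31.2, 121 ± 19.9, 317 ± 139 and 306 ± 44.1. The Gst sums of both ethanol groups overlapped, whereas the Ugt sum was lower in 3 of 4 ethanol Aldh2-/- livers than in any ethanol WT liver. A few genes carried each sum. Gstm1 and Gstp1 led the Gst family, Gstm1 alone giving 34.3% to 48.5% of the group means. Ugt2b5 and Ugt2b36 led the Ugt family, and Sult1d1 and Sult1a1 the Sult family. At the other end, 15 genes averaged under 0.5 FPKM over the 15 libraries (4 Ugt, 8 Sult and 3 Gst), and 45 averaged 0.5 or more. Of all 60 genes, none was at 0 in all 15 libraries.

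**Figure D1:**
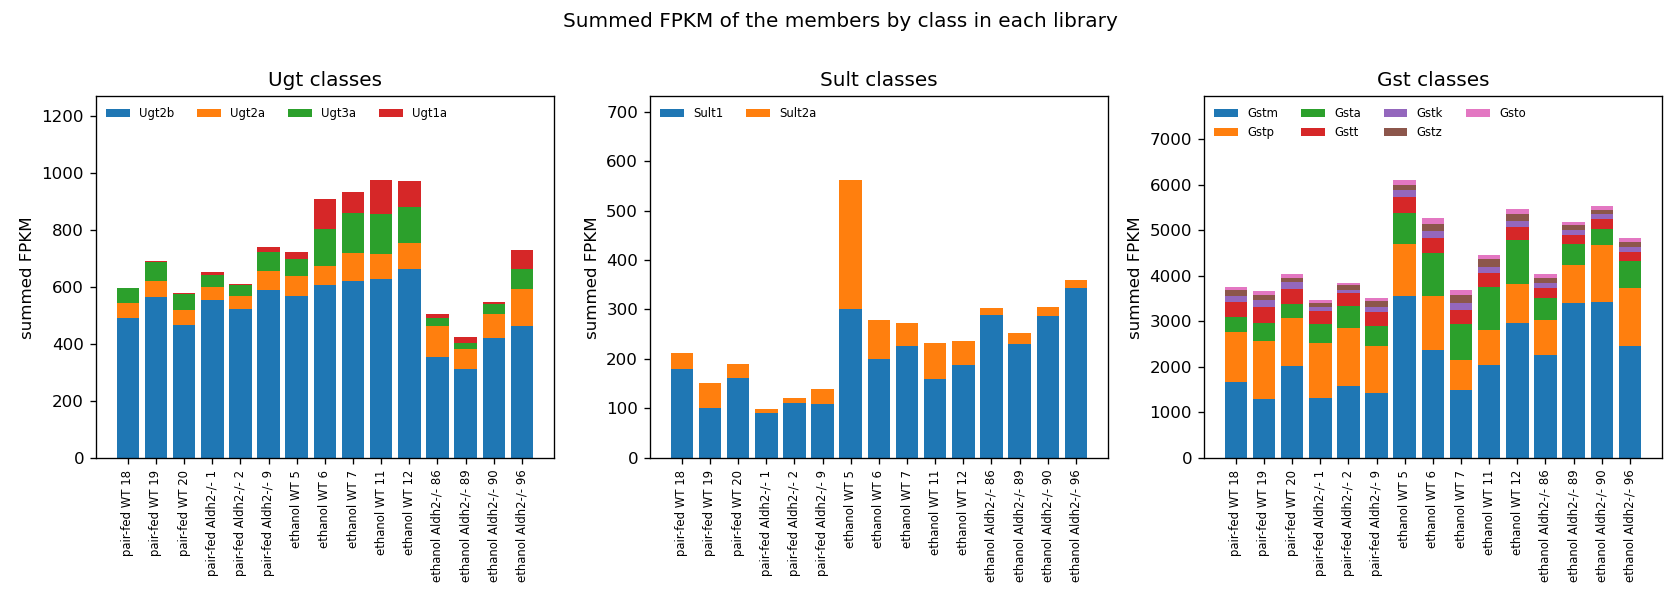
Summed FPKM of the member genes, stacked by class, in each of the 15 libraries, with 1 panel each for Ugt, Sult and Gst genes and a linear axis from 0 that differs between panels (the other Sult classes, of which Sult5a1 is highest at up to 2.83 FPKM, are not drawn). The Ugt sum is 425 to 729 in ethanol Aldh2-/- livers and 722 to 977 in ethanol WT livers, and the Sult sum of WT 5 (563) is the highest of the 15.

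Genes were tested with limma on log2(FPKM + 1) where their mean in the fit was at least 0.5 FPKM, and called where the Benjamini-Hochberg adjusted p over all genes was under 0.05. That mean covers all libraries fitted, so a gene can pass through its higher group alone. Of the calls below, Sult1c2, Sult2a5 and Sult2a7 passed through ethanol WT and Ugt2b37 through ethanol Aldh2-/- livers. Their means in the other ethanol group were 0.214, 0.107, 0.236 and 0.140 FPKM. Under pair-feeding Ugt1a6b and Ugt1a9 passed through Aldh2-/- livers (0.418 and 0.163 in WT). Several Ugt1a and Sult2a genes under 0.5 FPKM in pair-fed WT livers entered the diet fits. In those fits and the interaction the mean of Sult1e1 came mainly from ethanol Aldh2-/- livers, at 20.1 FPKM. Its means were 0.570 in pair-fed WT, 0.180 in pair-fed Aldh2-/- and 0.634 in ethanol WT livers. Under ethanol, 46 of the 60 genes were tested between genotypes, of which 3 were higher and 25 lower in Aldh2-/- livers. Over all 11013 genes tested, 21.5% were called higher and 15.7% lower. The median log2 difference was -0.58 over the tested members and 0.04 over all genes. By family, 1 Ugt gene was higher and 10 were lower of 15 tested, 1 Sult gene was higher and 5 were lower of 11, and 1 Gst gene was higher and 10 were lower of 20. Under pair-feeding, 40 were tested, 7 were higher and 5 lower in Aldh2-/- livers (26.0% and 2.41% of all genes), with a median of 0.01 against 0.26 over all genes. That comparison depended on scaling. Median-ratio rescaling brought the median of all genes from 0.26 to 0.01. It left 1 member higher and 6 lower (2.32% and 3.4% of all genes), and quantile normalization left 1 higher and 5 lower (2.69% and 3.12%). Without pair-fed WT 20 or without pair-fed Aldh2-/- 1, 2 members were called, and without WT 18, 6. Calls over all genes fell too, from 3162 of 11138 to 474 of 11152, 294 of 11100 and 2314 of 11125. Ethanol raised 22 and lowered 5 of 45 tested genes in WT livers (29.2% and 11.9% of all genes), with a median of 0.44 against 0.10 over all genes. In Aldh2-/- livers it raised 12 and lowered 12 of 45 (17.6% and 29.3% of all genes), with medians of 0.12 and -0.09. The interaction was called for 23 of 45 genes, 3 with a higher and 20 with a lower genotype difference under ethanol (8.06% and 29.0% of all genes). Under median-ratio rescaling the interaction split was 5 higher and 11 lower (12.4% and 16% of all genes). Without pair-fed Aldh2-/- 9 the count was 14, with 3635 of 11129 called over all genes against 4134 of 11157. The genotype and diet comparisons share libraries, so each is given with its own values.

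**Figure D2:**
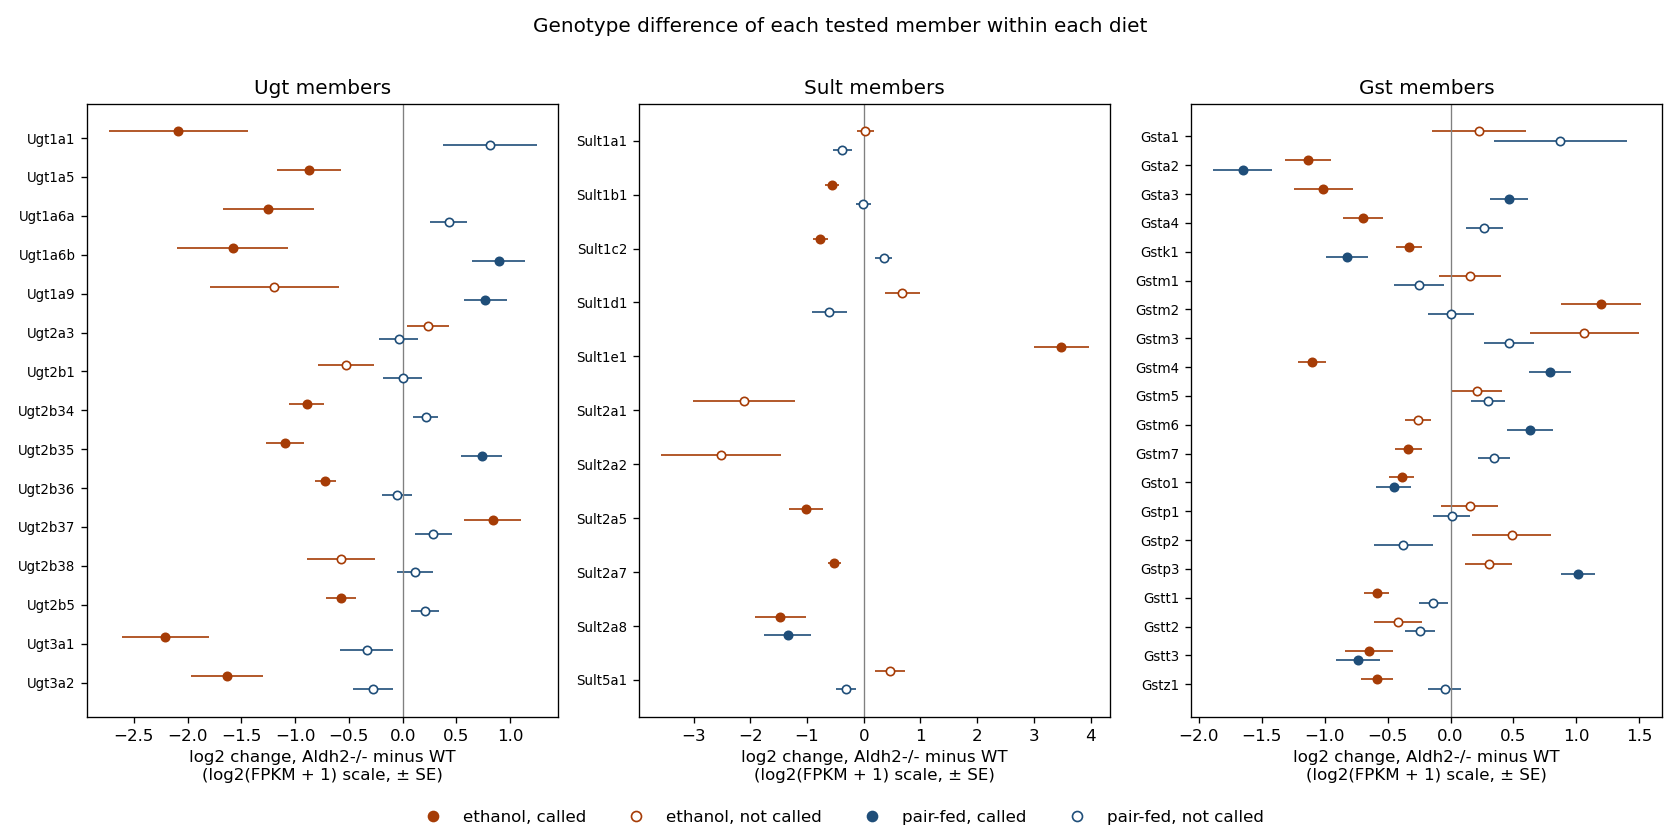
Log2 difference between Aldh2-/- and WT livers (horizontal axis, log2(FPKM + 1) scale) for each tested gene of each family, under ethanol and under pair-feeding. Points are limma estimates with their SE, filled where the gene was called. Under ethanol 25 filled points lie left of 0 and 3 right of it, Sult1e1 at 3.48.

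Lists of values run in the order of the library numbers. These are 18, 19 and 20 for pair-fed WT, 1, 2 and 9 for pair-fed Aldh2-/-, 5, 6, 7, 11 and 12 for ethanol WT, and 86, 89, 90 and 96 for ethanol Aldh2-/- livers. The replicate block named below used a different number, the description number of each sample within its group.

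The Ugt1a genes are a single cluster on chromosome 1 (GRCm38, 88055388-88220002, plus strand) in which a gene's first coding exon is followed by exons that all share. The shared part is 4 coding exons of 735 bases (88215044-88218421). The first coding exon, called own here, is 870 bases in Ugt1a1, 852 in Ugt1a5, 858 in Ugt1a6a and Ugt1a6b, and 849 in Ugt1a9. The junctions of the 5 measurable genes are shown, since reads from the shared exons cannot be assigned to 1 of them. In GENCODE vM21 transcripts, the last 50 bases of the own exon are in lower case and the first 20 bases of the shared exon (88215044-88215063) are in capitals.
Ugt1a1, chr1:88212822-88212871: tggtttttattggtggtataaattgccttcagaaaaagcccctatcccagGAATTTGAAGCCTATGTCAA
Ugt1a5, chr1:88166854-88166903: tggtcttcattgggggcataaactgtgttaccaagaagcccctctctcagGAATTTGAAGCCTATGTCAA
Ugt1a6a, chr1:88139282-88139331: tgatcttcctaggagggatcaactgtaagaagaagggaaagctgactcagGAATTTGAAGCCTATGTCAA
Ugt1a6b, chr1:88107750-88107799: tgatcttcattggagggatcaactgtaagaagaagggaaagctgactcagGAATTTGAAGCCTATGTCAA
Ugt1a9, chr1:88071629-88071678: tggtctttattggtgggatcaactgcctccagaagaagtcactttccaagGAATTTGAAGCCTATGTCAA
The capitals are the same in all lines. The lower-case stretches of Ugt1a6a and Ugt1a6b are nearly alike, and their own exons are 97.0% identical over the whole length. By words of 50 bases, 44.3% of the coding sequence of Ugt1a1, 49.0% of Ugt1a9 and 71.8% of Ugt1a6b occurs in another gene, and all of Ugt1a6a also occurs in Ugt1a7c. In the transcripts used, the exon called own in Ugt1a6a is therefore not unique to it. How the authors counted reads from shared sequence is not given in the sources used here, so the Ugt1a values below may not be independent of each other.

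Ugt1a1, the enzyme that glucuronidates bilirubin, was low in pair-fed livers. It read 1.27, 3.31 and 2.61 FPKM in pair-fed WT and 4.58, 2.04 and 10.2 in pair-fed Aldh2-/- livers. Ethanol WT livers read 16.2, 71.2, 47.1, 83.9 and 60.3, and ethanol Aldh2-/- livers 8.60, 15.6, 2.22 and 36.0. Every ethanol WT liver was above every pair-fed liver of either genotype, whereas ethanol Aldh2-/- 86 and 90 lay within the range of pair-fed Aldh2-/- values. Ethanol raised Ugt1a1 23.3-fold by the ratio of means in WT livers (log2 change 3.93 ± 0.66 SE, limma adjusted p = 0.000515). In Aldh2-/- livers the difference was 1.03 ± 0.69 and was not called (adjusted p = 0.236). Under ethanol Aldh2-/- livers were 3.57-fold lower than WT (-2.09 ± 0.65, adjusted p = 0.0271), and 6.33-fold lower without Aldh2-/- 96. The genotype groups overlapped, because Aldh2-/- 96 was above WT 5. That call was lost on leaving out WT 6, WT 11, WT 12, Aldh2-/- 86 or Aldh2-/- 90 in turn and with no filter on low values, with an adjusted p of up to 0.0747. The interaction was -2.90 ± 0.95 (adjusted p = 0.0276). It was lost without pair-fed WT 18, pair-fed Aldh2-/- 1 or 9, with no filter and under quantile normalization.

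The other measurable Ugt1a genes moved alike. Ugt1a9, which acts on phenols and many drugs, read 0.138, 0.177 and 0.175 FPKM in pair-fed WT, 1.02, 0.439 and 1.67 in pair-fed Aldh2-/-, 2.72, 12.4, 8.52, 12.9 and 10.7 in ethanol WT and 2.54, 1.61, 0.855 and 16.4 in ethanol Aldh2-/- livers. All pair-fed WT values lay below all pair-fed Aldh2-/- values, and Aldh2-/- 96 was the highest of all 15 libraries. Ugt1a6b, a phenol-conjugating enzyme, read 0.169, 0.594 and 0.492 in pair-fed WT, 1.32, 0.962 and 2.91 in pair-fed Aldh2-/-, 2.33, 11.4, 10.4, 13.8 and 12.9 in ethanol WT and 1.49, 2.85, 0.553 and 7.18 in ethanol Aldh2-/- livers. Its near copy Ugt1a6a read 0.193, 0.422 and 0.333, 0.771, 0.383 and 1.25, 1.11, 6.76, 5.05, 6.91 and 5.43 and 1.06, 1.23, 0.356 and 3.61 in the same groups. Both ran in the same order of groups as Ugt1a1, with pair-fed WT lowest and ethanol WT highest. Ethanol raised all 5 genes in WT livers, by 1.48 (Ugt1a5) to 3.93 (Ugt1a1) on the log2 scale, with no overlap between the diets. In Aldh2-/- livers 0 of 5 were called by limma, and the smallest unadjusted p among them was 0.0920 (Ugt1a9). Between genotypes under ethanol, 4 of 5 were lower and Ugt1a9 was not called (-1.19 ± 0.60, adjusted p = 0.142). Leaving out Aldh2-/- 96 moved the folds of Ugt1a5, Ugt1a6a, Ugt1a6b and Ugt1a9 to between 5.66-fold and 6.23-fold lower. The calls of Ugt1a5, Ugt1a6a and Ugt1a6b were lost without any 1 of WT 6, 7, 11 or 12 or Aldh2-/- 86, 89 or 90. Under pair-feeding Ugt1a6b (0.89 ± 0.25, adjusted p = 0.0322) and Ugt1a9 (0.77 ± 0.20, adjusted p = 0.0274) were called higher in Aldh2-/- livers, and both calls were lost under median-ratio and quantile scaling. Without pair-fed WT 18, WT 20 or Aldh2-/- 1 both were lost as well.

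Within each group the 5 genes ranked libraries the same way at both ends. The lowest library for all 5 was pair-fed WT 18, pair-fed Aldh2-/- 2, ethanol WT 5 and ethanol Aldh2-/- 90. The highest for all 5 was pair-fed WT 19, pair-fed Aldh2-/- 9, ethanol WT 11 and ethanol Aldh2-/- 96. WT 5 and Aldh2-/- 90 are also the ethanol libraries with the highest mitochondrial share, and its part in their Ugt1a level was not tested. Ugt1a2, Ugt1a7c, Ugt1a8 and Ugt1a10 stayed at or below 0.115 FPKM in every library and were not tested.

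**Figure D3:**
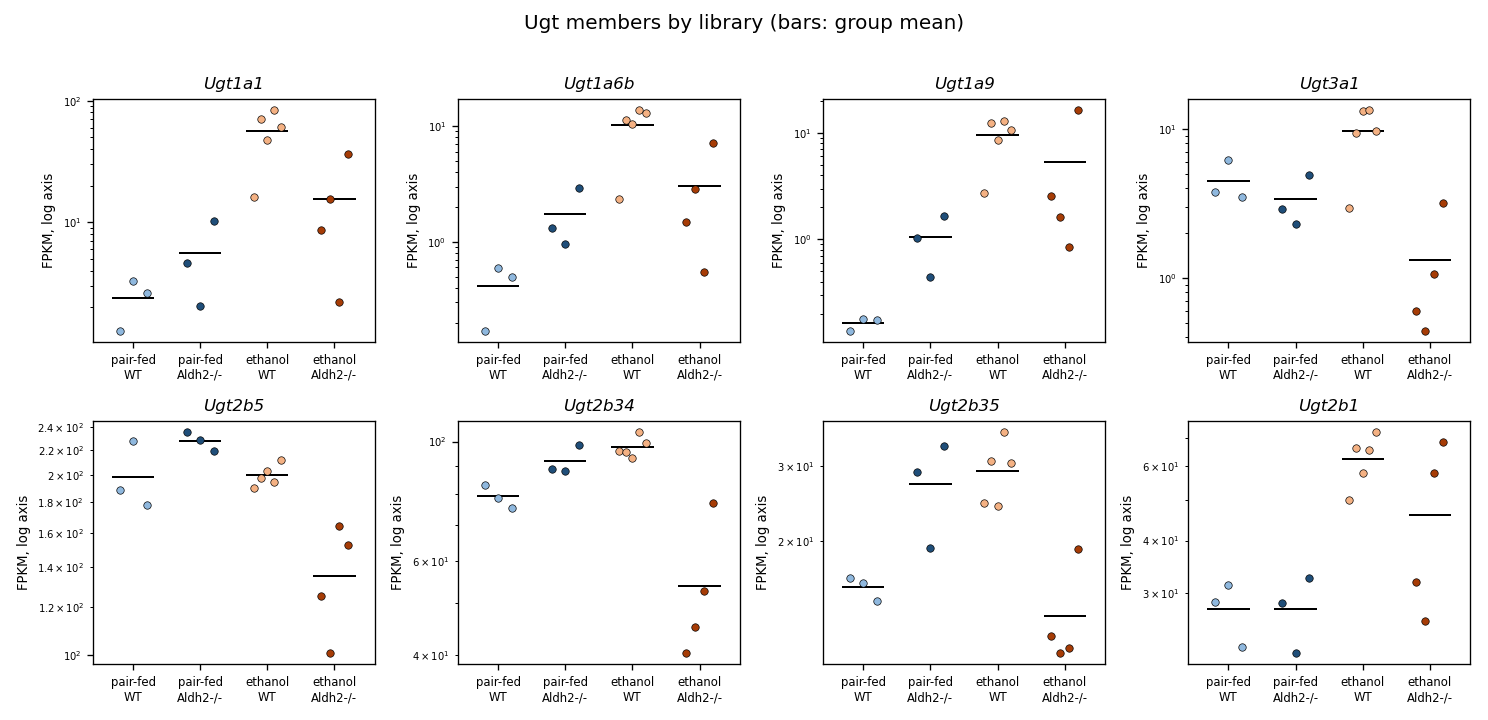
FPKM of 8 Ugt genes in each library on a log axis that differs between panels, by group, with a bar at the group mean. Ugt1a1, Ugt1a6b and Ugt1a9 are higher in ethanol WT livers than in any pair-fed WT liver, and Ugt2b34, Ugt2b35 and Ugt2b5 are lowest in ethanol Aldh2-/- livers by the group mean.

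The Ugt2b genes, whose enzymes conjugate steroids, bile acids and fatty acid products, carried most Ugt expression. They lie together on chromosome 5 (86889767-87424203), with Ugt2a3 between them and Sult1b1, Sult1d1 and Sult1e1 just beyond. Ugt2b36 read 173, 209 and 176 FPKM in pair-fed WT, 172, 164 and 203 in pair-fed Aldh2-/-, 209.6, 213, 241, 229 and 248 in ethanol WT and 146, 129.7, 133 and 143 in ethanol Aldh2-/- livers. Ugt2b5 read 189, 228 and 178, 236, 229 and 219, 190.0, 198, 203, 195 and 212 and 126, 101, 164 and 153 in the same order, and Ugt2b34 read 83.1, 78.6 and 75.3, 88.8, 88.2 and 98.4, 96.0, 95.5, 93.3, 104 and 99.5 and 40.3, 45.1, 52.8 and 76.8. All 3 had every ethanol Aldh2-/- liver below every ethanol WT liver. The genotype difference under ethanol was -0.72 ± 0.10 for Ugt2b36 (adjusted p = 0.000563), -0.89 for Ugt2b34 (adjusted p = 0.00224) and -0.58 for Ugt2b5 (adjusted p = 0.00934). Under pair-feeding 0 of these 3 were called in limma, with adjusted p from 0.180 to 0.789 and unadjusted p from 0.0977 upwards. Reads of Ugt2b5 are uncertain, since 48.9% of its coding words occur in another gene, mainly Ugt2b38.

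Ugt2b35 differed between genotypes in opposite directions in the 2 diets. It read 16.4, 16.0 and 14.5 FPKM in pair-fed WT against 29.2, 19.3 and 33.5 in pair-fed Aldh2-/- livers, and 24.6, 30.9, 24.2, 36.1 and 30.6 in ethanol WT against 12.0, 10.9, 11.3 and 19.2 in ethanol Aldh2-/- livers. The groups did not overlap in either diet, and Aldh2-/- 96 stood above the other 3 ethanol Aldh2-/- livers. Aldh2-/- livers were 1.75-fold higher under pair-feeding (0.73 ± 0.19, adjusted p = 0.0285) and 2.19-fold lower under ethanol (-1.10 ± 0.18, adjusted p = 0.00116). The interaction was -1.83 ± 0.28 (adjusted p = 0.000396) and was called in every alternative run. The pair-fed call was lost under median-ratio and quantile scaling, with mitochondrial genes removed, with no filter, and without pair-fed WT 18, WT 20, Aldh2-/- 1 or Aldh2-/- 9. None of its coding words occurs in another gene.

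Ugt2b1, an abundant member, rose with ethanol in WT livers. It read 28.6, 31.4 and 22.3 FPKM in pair-fed WT, 28.5, 21.6 and 32.6 in pair-fed Aldh2-/-, 49.8, 66.3, 57.7, 65.5 and 72.3 in ethanol WT and 31.9, 25.8, 57.8 and 68.6 in ethanol Aldh2-/- livers. Ethanol Aldh2-/- livers split, 90 and 96 lying with ethanol WT and 86 and 89 with the pair-fed livers. The ethanol effect was 1.16 ± 0.26 in WT (adjusted p = 0.00300) and 0.63 ± 0.27 in Aldh2-/- livers, which was not called (adjusted p = 0.0691). The genotype difference under ethanol was not called (-0.53 ± 0.26, adjusted p = 0.132). Ugt2a3, a bile acid glucuronosyltransferase, rose with ethanol in both genotypes (0.60 in WT, adjusted p = 0.0299; 0.87 in Aldh2-/-, adjusted p = 0.00369). The WT call was lost under median-ratio and quantile scaling and in 6 of the 15 fits that left out 1 library. The single Ugt gene called higher in ethanol Aldh2-/- livers was Ugt2b37, at 0.303 to 2.58 FPKM against 0.0928 to 0.199 in WT (0.84 ± 0.26, adjusted p = 0.0293). It shares 21.4% of its coding words with other genes, and the call was lost with no filter, under quantile normalization and without WT 6, WT 11 or WT 12.

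Of the family 3 enzymes, which use sugars other than glucuronic acid, both genes were lower in ethanol Aldh2-/- than in ethanol WT livers. Ugt3a2 read 48.7, 62.4 and 54.4 FPKM in pair-fed WT, 41.4, 37.0 and 59.7 in pair-fed Aldh2-/-, 58.6, 122, 127, 125 and 116 in ethanol WT and 27.8, 19.4, 34.1 and 66.7 in ethanol Aldh2-/- livers. Ugt3a1 read 3.78, 6.19 and 3.47, 2.90, 2.31 and 4.91, 2.92, 9.36, 13.2, 13.4 and 9.59 and 0.596, 0.440, 1.07 and 3.18 in the same groups. In both genes WT 5 was the lowest ethanol WT liver and Aldh2-/- 96 the highest ethanol Aldh2-/- liver, and these overlapped. The difference under ethanol was -2.21 ± 0.40 for Ugt3a1 (adjusted p = 0.00223; 7.34-fold lower, and 13.8-fold without Aldh2-/- 96) and -1.63 ± 0.33 for Ugt3a2 (adjusted p = 0.00373). Both calls held in every alternative run. Under pair-feeding neither was called (adjusted p = 0.320 and 0.281), and the interaction was called for both. For Ugt3a1 it was lost with no filter, under quantile scaling and without pair-fed WT 20 or Aldh2-/- 9. For Ugt3a2 it was lost in 14 of 23 alternatives, including median-ratio and quantile scaling. Between diets, Ugt3a2 was called higher with ethanol in WT livers, a call lost in 10 of 24 alternatives. Ugt3a1 was not called there, and neither gene was called in Aldh2-/- livers.

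Sult1e1, the oestrogen sulfotransferase, was close to 0 outside ethanol Aldh2-/- livers. It read 1.01, 0.276 and 0.424 FPKM in pair-fed WT, 0, 0.374 and 0.168 in pair-fed Aldh2-/- and 2.12, 0.229, 0.297, 0.0923 and 0.434 in ethanol WT livers. In ethanol Aldh2-/- livers it read 7.25, 27.5, 38.0 and 7.75, so that the lowest of these was above the highest of all other libraries (WT 5). The difference from pair-fed Aldh2-/- livers was 3.85 ± 0.48 (adjusted p = 1.75e-05). The ratio of means was 111, and 239.8 without pair-fed Aldh2-/- 2. It is taken over a pair-fed Aldh2-/- mean of only 0.180 FPKM. The interaction was 3.88 ± 0.66 (adjusted p = 0.000754), and the genotype difference under ethanol was 3.48 ± 0.48 (adjusted p = 0.000595). Each call held in every alternative run. In WT livers ethanol made a difference of -0.03 ± 0.46 (adjusted p = 0.963). Under pair-feeding the gene was under the 0.5 FPKM mean and was not tested. It lies on chromosome 5 (87575969-87591594, minus strand), beside Sult1d1 (87554645-87569027), and no coding word of either gene occurs elsewhere.

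Sult1d1, which sulfates catecholamines, and Sult1a1, which sulfates phenols, were the most abundant sulfotransferases. Sult1d1 read 95.2, 39.8 and 81.4 FPKM in pair-fed WT, 35.9, 57.2 and 41.7 in pair-fed Aldh2-/-, 159.8, 80.0, 84.3, 57.6 and 74.3 in ethanol WT and 133, 86.7, 146 and 216 in ethanol Aldh2-/- livers. WT 5 stood apart from the other ethanol WT livers, and all ethanol Aldh2-/- livers were above all pair-fed Aldh2-/- livers. Ethanol raised it 3.24-fold in Aldh2-/- livers (1.63 ± 0.36, adjusted p = 0.00165), whereas the WT difference was 0.34 ± 0.34 (adjusted p = 0.451). The test of that difference itself gave 1.29 ± 0.49 (adjusted p = 0.0518) and was not called. Sult1a1 read 79.1, 55.2 and 73.1, 48.7, 49.2 and 60.2, 129, 110.0, 129, 92.3 and 101 and 141, 111, 96.6 and 111 in the same groups. Both ethanol groups were above both pair-fed groups. Ethanol raised it in WT (0.70 ± 0.16, adjusted p = 0.00304) and Aldh2-/- livers (1.10 ± 0.16, adjusted p = 7.79e-05), and the genotypes under ethanol differed by 0.03 ± 0.14 (adjusted p = 0.880).

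Sult1b1, a thyroid hormone sulfotransferase, rose with ethanol in WT livers and, less stably, in Aldh2-/- livers. It read 4.19 to 4.95 FPKM in pair-fed WT and 4.06 to 5.45 in pair-fed Aldh2-/- livers. Ethanol WT livers read 9.07 to 10.7 and ethanol Aldh2-/- livers 4.84 to 7.75, all below the WT values. The ethanol effect was 0.92 ± 0.12 in WT (adjusted p = 0.000185) and 0.37 ± 0.13 in Aldh2-/- livers (adjusted p = 0.0286). In Aldh2-/- livers the diets overlapped, and the call was lost in the fit of those 2 groups alone, under the replicate block, and without pair-fed Aldh2-/- 1 or 2 or ethanol Aldh2-/- 86 or 96, with an adjusted p of up to 0.123. The ethanol genotype difference was -0.56 ± 0.12 (adjusted p = 0.00508). The interaction was -0.55 ± 0.18 (adjusted p = 0.0270), and it was lost under median-ratio, quantile and mitochondria-free scaling, under the replicate block, and without pair-fed WT 19 or Aldh2-/- 9. Sult1c2 was low throughout, with 0.708 to 1.68 FPKM in ethanol WT and 0.0633 to 0.301 in ethanol Aldh2-/- livers (5.08-fold lower; -0.77 ± 0.13, adjusted p = 0.00162). Pair-fed WT and Aldh2-/- livers read 0.567 to 1.10 and 1.27 to 1.75.

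The Sult2a genes sulfate hydroxysteroids and bile acids, and several are known to be much higher in female than in male mouse liver. Sult2a2 read 0.112, 0.0855 and 0.160 FPKM in pair-fed WT, 0.0404, 0 and 0.571 in pair-fed Aldh2-/-, 184, 41.8, 1.48, 23.4 and 13.6 in ethanol WT and 2.79, 15.9, 0.959 and 1.18 in ethanol Aldh2-/- livers. Sult2a1 read 0.0542, 0.186 and 0.0291, 0.0293, 0.0288 and 0.0259, 59.9, 9.68, 0.310, 4.98 and 1.80 and 0.431, 2.27, 0.0605 and 0.207 in the same groups. Both genes were at most 0.571 FPKM in pair-fed livers and spread widely among ethanol WT livers, WT 5 being highest and WT 7 lowest. The 2 genes share sequence: 51.0% of the coding words of Sult2a2 and 33.4% of those of Sult2a1 occur in other genes, mostly in each other. Ethanol raised both in WT livers (Sult2a2 4.38 ± 0.98, adjusted p = 0.00293; Sult2a1 2.64 ± 0.83, adjusted p = 0.0199). The ratios of means, 442 and 171, fell to 168 and 46.7 without WT 5, and that of Sult2a1 became 368 without pair-fed WT 19. The call of Sult2a1 was lost with no filter and without pair-fed WT 18 or WT 20. The genotype difference under ethanol was not called for either (adjusted p = 0.0848 and 0.0885). Sult2a5 was listed at 0 in all 6 pair-fed livers, at 0.0275 to 2.99 FPKM in ethanol WT and 0 to 0.237 in ethanol Aldh2-/- livers. Its genotype difference (-1.02 ± 0.31, adjusted p = 0.0238) was lost without WT 6, WT 11, Aldh2-/- 86 or Aldh2-/- 90 and with no filter. Sult2a3, Sult2a4 and Sult2a6 were listed at 0 in every library outside ethanol WT and did not pass 0.169 FPKM there.

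Sult2a8, a hepatic bile acid sulfotransferase, was lower in Aldh2-/- livers in both diets. It read 30.0, 49.7 and 29.1 FPKM in pair-fed WT against 9.01, 8.83 and 28.6 in pair-fed Aldh2-/- livers, and 13.6, 23.4, 45.3, 40.4 and 31.8 in ethanol WT against 10.6, 2.91, 16.6 and 15.1 in ethanol Aldh2-/- livers. The pair-fed groups did not overlap but met closely, with 29.1 in WT 20 and 28.6 in Aldh2-/- 9, and under ethanol WT 5 lay within the Aldh2-/- range. Aldh2-/- livers were 2.34-fold lower under pair-feeding (-1.34 ± 0.41, adjusted p = 0.0438; 4.07-fold without Aldh2-/- 9) and 2.74-fold lower under ethanol (-1.47 ± 0.45, adjusted p = 0.0263). The pair-fed call was lost in 9 of 14 alternatives, and the ethanol call with no filter and without WT 7, WT 11, WT 12 or Aldh2-/- 86. The diet differences were not called in WT (adjusted p = 0.662) or Aldh2-/- livers (adjusted p = 0.525). Sult2a7 was low, at 0.419 to 1.03 FPKM in ethanol WT and 0.150 to 0.365 in ethanol Aldh2-/- livers (-0.52 ± 0.11, adjusted p = 0.00462). Of the remaining sulfotransferases, Sult5a1 was called lower with ethanol in WT livers (-0.74, adjusted p = 0.0314), a call lost with no filter, under the replicate block, and without pair-fed WT 18 or WT 20 or ethanol WT 6, 11 or 12. Sult2b1, Sult3a1, Sult3a2 and Sult4a1 were not tested.

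**Figure D4:**
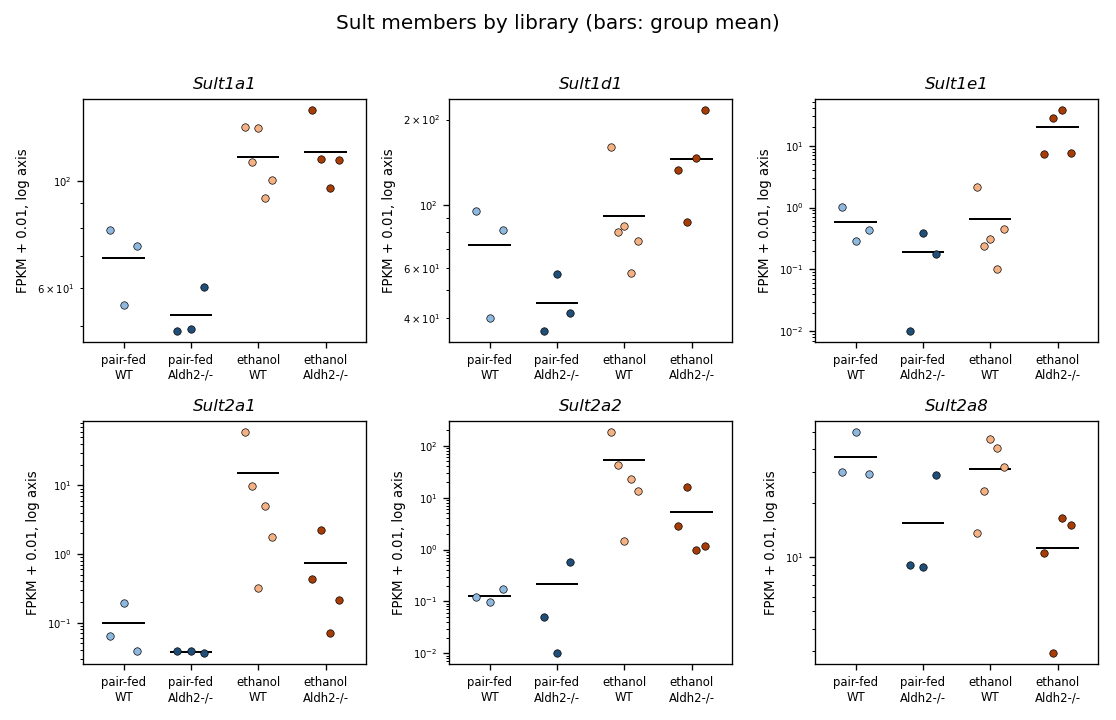
FPKM + 0.01 of 6 Sult genes in each library on a log axis that differs between panels, by group, with a bar at the group mean. Sult1e1 is 7.25 to 38.0 FPKM in ethanol Aldh2-/- livers and at most 2.12 elsewhere, and Sult2a1 and Sult2a2 spread widely among ethanol WT livers, with WT 5 highest.

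Among Gst genes the alpha class, whose enzymes reduce lipid peroxides and conjugate aldehydes such as 4-hydroxynonenal, held 3 of the 10 genes called lower in ethanol Aldh2-/- livers. Gsta2 read 24.5, 34.0 and 22.8 FPKM in pair-fed WT, 8.94, 10.1 and 5.21 in pair-fed Aldh2-/-, 74.7, 93.9, 57.2, 79.5 and 118 in ethanol WT and 35.8, 33.9, 35.6 and 43.1 in ethanol Aldh2-/- livers. Aldh2-/- livers were below WT in both diets, with no overlap. The difference was -1.65 ± 0.24 under pair-feeding (adjusted p = 0.00731) and -1.13 ± 0.18 under ethanol (adjusted p = 0.00119), and both held in every alternative run. Ethanol raised Gsta2 3.12-fold in WT and 4.60-fold in Aldh2-/- livers, and the interaction was not called (0.52 ± 0.32, adjusted p = 0.207). Of its coding words, 75.7% occur in other genes, among them Gm10639 and Gsta1, so its reads are uncertain. Gsta1 itself, with 92.9% of words shared, read 25.0, 18.5 and 16.4, 46.0, 79.1 and 13.5, 27.1, 21.3, 9.06, 23.3 and 24.2 and 17.0, 30.8, 43.5 and 12.7 in the 4 groups. Its groups overlapped in each of the 4 comparisons, and it was called in none (smallest unadjusted p 0.135).

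Gsta3, the most abundant alpha gene and one with no shared word, rose with ethanol in WT livers, and its response differed between genotypes. It read 208, 250.5 and 182 FPKM in pair-fed WT, 274, 286 and 320.2 in pair-fed Aldh2-/-, 471, 722, 629, 747 and 693 in ethanol WT and 359.6, 306, 199 and 474 in ethanol Aldh2-/- livers. Ethanol WT livers were above all pair-fed livers, and the ethanol genotypes met at 471 (WT 5) and 474 (Aldh2-/- 96). The ethanol effect was 1.60 ± 0.22 in WT (adjusted p = 0.000223) and 0.12 ± 0.23 in Aldh2-/- livers (adjusted p = 0.692). The genotype difference under ethanol was -1.01 ± 0.23 (adjusted p = 0.00722), and the interaction -1.48 ± 0.32 (adjusted p = 0.00340) held in every alternative run. The pair-fed rise (0.47 ± 0.15, adjusted p = 0.0478) was lost in 10 of 14 alternatives, among them all 3 rescalings. Gsta4, which conjugates 4-hydroxynonenal most efficiently of the class, read 72.9, 99.6 and 77.0, 107, 94.2 and 98.0, 114, 110.5, 99.0, 96.2 and 118 and 66.6, 93.3, 56.2 and 53.2 in the 4 groups. All ethanol Aldh2-/- livers were below all ethanol WT livers (-0.70 ± 0.16, adjusted p = 0.00672). Under pair-feeding Gsta4 was not called (0.27 ± 0.15, adjusted p = 0.185), and the interaction was -0.97 ± 0.23 (adjusted p = 0.00588). Gsta5 averaged under 0.5 FPKM and was not tested.

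The 7 mu genes lie within 0.149 Mb on chromosome 3 (107895821-108044894) and did not move as a block. Gstm1, the most abundant gene of all 60, read 1504, 1116 and 1886 FPKM in pair-fed WT, 1120.4, 1349 and 1239.6 in pair-fed Aldh2-/-, 3176, 2072, 1319, 1785 and 2634 in ethanol WT and 1944, 2488, 2979 and 2080.4 in ethanol Aldh2-/- livers. The ethanol genotypes overlapped (0.16 ± 0.25, adjusted p = 0.644), and ethanol raised it in Aldh2-/- livers (0.92 ± 0.26, adjusted p = 0.00892). In WT livers its mean was 1502 FPKM under pair-feeding and 2197 under ethanol. Neither that diet difference nor the interaction was called for Gstm1. Other genes, mainly Gstm2-ps1 and Gstm3, hold 37.6% of the coding words of Gstm1. Gstm3 read 40.1, 32.8 and 31.5, 36.1, 61.9 and 50.2, 205, 165, 57.1, 126 and 200.4 and 174, 665, 252 and 238 in the 4 groups, Aldh2-/- 89 standing far above the rest. Ethanol raised Gstm3 4.33-fold in WT (1.96 ± 0.42, adjusted p = 0.00211) and 6.72-fold in Aldh2-/- livers (2.55 ± 0.44, adjusted p = 0.000238; 4.47-fold without Aldh2-/- 89). Of its coding words 59.3% occur in other genes. Gstm2 was the single Gst gene called higher in ethanol Aldh2-/- livers. It read 36.9, 42.6 and 35.6, 33.9, 50.8 and 32.6, 88.0, 53.6, 30.2, 45.0 and 36.8 and 90.1, 176, 125 and 72.0 in the 4 groups, with WT 5 inside the Aldh2-/- range. The difference was 1.19 ± 0.32 (adjusted p = 0.0140) and held in every alternative run, whereas its interaction (1.19 ± 0.45, adjusted p = 0.0486) was lost in 13 of 23.

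Gstm4 went the other way and changed sign with diet. It read 12.4, 15.5 and 12.9 FPKM in pair-fed WT against 30.5, 21.9 and 21.1 in pair-fed Aldh2-/- livers, and 20.4, 21.3, 19.8, 22.8 and 23.2 in ethanol WT against 8.08, 11.5, 8.57 and 10.1 in ethanol Aldh2-/- livers. The genotypes did not overlap in either diet. Aldh2-/- livers were 1.80-fold higher under pair-feeding (0.79 ± 0.17, adjusted p = 0.0163) and 2.25-fold lower under ethanol (-1.10 ± 0.11, adjusted p = 0.000153). The interaction of -1.89 ± 0.20 (adjusted p = 4.39e-05) and the ethanol difference held in every alternative run. The pair-fed call was lost under median-ratio and quantile scaling, with no filter, and without pair-fed WT 20 or Aldh2-/- 1, with an adjusted p of up to 0.151. Gstm6 read 22.2, 23.3 and 19.4, 40.2, 38.2 and 25.7, 21.6, 21.0, 18.1, 22.8 and 21.6 and 15.1, 19.7, 17.3 and 17.7 in the 4 groups, pair-fed Aldh2-/- livers being highest. It was called higher in pair-fed Aldh2-/- livers (0.63 ± 0.18, adjusted p = 0.0348; lost in 9 of 14 alternatives) and fell with ethanol in that genotype (-0.93 ± 0.14, adjusted p = 0.000109). Gstm7 fell with ethanol in Aldh2-/- livers too (-0.75, adjusted p = 0.000107), and Gstm5 was called in none of the comparisons (smallest unadjusted p 0.0340).

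The pi class was led by Gstp1, which had no genotype or diet call. It read 1075, 1251 and 1012 FPKM in pair-fed WT, 1146, 1228 and 984 in pair-fed Aldh2-/-, 1125, 1167, 648, 756 and 853 in ethanol WT and 747, 803, 1234 and 1272 in ethanol Aldh2-/- livers. The ethanol groups overlapped (genotype difference 0.15 ± 0.23, adjusted p = 0.628). Of the coding words of Gstp1, 70.9% occur in Gstp2, so its reads are uncertain. Gstp2, which shares 81.6% of its coding words with Gstp1 and a pseudogene, read 16.3, 16.0 and 13.4, 12.1, 16.2 and 7.59, 9.63, 8.55, 4.09, 3.67 and 5.46 and 8.50, 4.77, 15.5 and 8.62. It fell with ethanol in WT livers (-1.23 ± 0.32, adjusted p = 0.00752; lost under the replicate block). Gstp3 has no shared word and stood highest in pair-fed Aldh2-/- livers. It read 14.6, 18.0 and 18.7, 34.7, 32.9 and 38.4, 11.9, 8.96, 11.6, 8.83 and 7.27 and 13.6, 12.1, 15.6 and 8.06 in the 4 groups. Pair-fed Aldh2-/- livers were 2.07-fold above pair-fed WT livers with no overlap (1.01 ± 0.13, adjusted p = 0.00604), and this call held in every alternative run (adjusted p of up to 0.0493). Ethanol lowered it in WT (-0.77 ± 0.18, adjusted p = 0.00414) and Aldh2-/- livers (-1.48 ± 0.19, adjusted p = 2.39e-05). Under ethanol the genotypes overlapped (0.30 ± 0.19, adjusted p = 0.223).

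**Figure D5:**
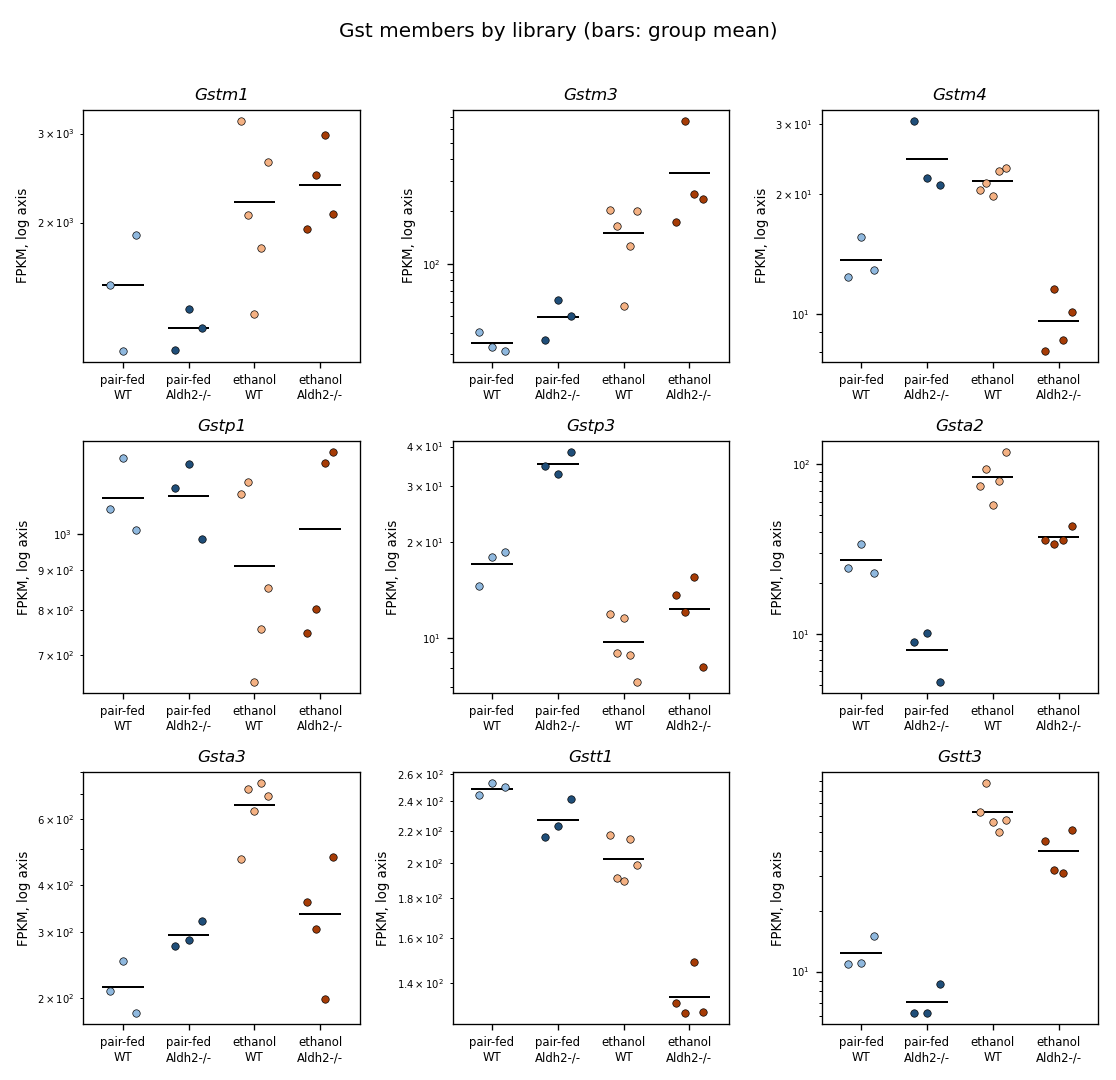
FPKM of 9 Gst genes in each library on a log axis that differs between panels, by group, with a bar at the group mean. Gstm4 is lowest in ethanol Aldh2-/- livers (8.08 to 11.5), Gstp3 highest in pair-fed Aldh2-/- livers (32.9 to 38.4), and Gsta2 and Gstt3 are lower in Aldh2-/- than in WT livers of the same diet by their group means.

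The theta genes, whose enzymes act on small halogenated compounds, were lower in ethanol Aldh2-/- livers in 2 of 3 tested members and split by diet. Gstt1 read 244, 253 and 250.3 FPKM in pair-fed WT, 216, 223 and 242 in pair-fed Aldh2-/-, 217, 191, 189.6, 215 and 199 in ethanol WT and 132, 128, 149 and 129 in ethanol Aldh2-/- livers. The 4 groups descended in that order and the ethanol Aldh2-/- livers were apart from all others. The ethanol genotype difference was -0.59 ± 0.10 (adjusted p = 0.00143), and ethanol lowered Gstt1 in WT (-0.30, adjusted p = 0.0188) and Aldh2-/- livers (-0.75, adjusted p = 2.72e-05). The WT diet call was lost with mitochondrial genes removed, under the replicate block, without pair-fed WT 19 and without pair-fed WT 20. Gstt3, its neighbour on chromosome 10, read 11.0, 11.1 and 15.1, 6.21, 6.21 and 8.65, 62.9, 87.2, 56.2, 49.6 and 57.4 and 45.0, 32.1, 31.1 and 51.2 in the 4 groups. Ethanol raised it 5.06-fold in WT (2.24 ± 0.20, adjusted p = 2.65e-05) and 5.67-fold in Aldh2-/- livers (2.33 ± 0.21, adjusted p = 1.12e-06), with no overlap between diets. Of the coding words of Gstt3, 70.6% also occur in the gene model Gm20441, so its reads are uncertain. It was lower in Aldh2-/- livers under pair-feeding (-0.74, adjusted p = 0.0210) and under ethanol (-0.64, adjusted p = 0.0223), calls lost in 4 and 5 alternatives, each including 1 or more left-out libraries. Gstt2 read 71.9, 69.4 and 74.0, 64.6, 54.5 and 62.6, 66.1, 49.3, 55.1, 44.0 and 40.6 and 39.0, 48.5, 40.3 and 25.6, and fell with ethanol in Aldh2-/- livers (-0.68 ± 0.19, adjusted p = 0.00806) and in WT livers (-0.50, adjusted p = 0.0352). The latter call was lost with no filter, under the replicate block, without any 1 pair-fed WT library, and without ethanol WT 6, 11 or 12.

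The kappa gene Gstk1, the zeta gene Gstz1 and Gsto1 of the omega class were lower in ethanol Aldh2-/- livers. Gstz1, which also isomerises maleylacetoacetate in tyrosine breakdown, read 120.3, 164, 181, 165 and 152 FPKM in ethanol WT and 102, 104, 94.1 and 112 in ethanol Aldh2-/- livers, with no overlap (-0.59 ± 0.13, adjusted p = 0.00520). Its pair-fed libraries read 122, 113 and 109 in WT and 103, 104 and 127 in Aldh2-/- livers and were not called apart (adjusted p = 0.801). Gsto1, which reduces dehydroascorbate, read 70.3, 90.7 and 85.8, 58.5, 54.6 and 65.9, 106, 114, 108, 97.2 and 119 and 88.0, 82.9, 74.4 and 86.3 in the 4 groups. Aldh2-/- livers were below WT in both diets with no overlap (-0.45 ± 0.14, adjusted p = 0.0440 pair-fed; -0.39 ± 0.10, adjusted p = 0.0114 ethanol). The pair-fed call was lost with no filter and without pair-fed WT 19, WT 20, Aldh2-/- 1 or Aldh2-/- 2, and the ethanol call under the replicate block. Gstk1, found in mitochondria and peroxisomes, read 137, 164 and 143, 71.7, 76.0 and 105, 145, 145, 146, 131 and 119 and 114, 104, 117 and 99.4. It too was lower in Aldh2-/- livers in both diets (-0.82 ± 0.17, adjusted p = 0.0148 pair-fed; -0.33 ± 0.10, adjusted p = 0.0298 ethanol). The ethanol call was lost without WT 6, WT 7, Aldh2-/- 89 or Aldh2-/- 96 and under quantile scaling, and the pair-fed call with no filter and without pair-fed WT 20 or Aldh2-/- 1. Gsto2 and Gstt4 were at or near 0 and were not tested.

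The genes that supply the conjugated groups were counted as lists, to be read against the 21.5% higher and 15.7% lower of all genes under ethanol and the 26.0% and 2.41% under pair-feeding. Of 8 genes for UDP-glucuronic acid, all tested, 6 were lower and 1 higher in ethanol Aldh2-/- livers, with a median of -0.55. Ugdh, the dehydrogenase that makes UDP-glucuronic acid, read 41.7, 70.0, 46.4, 61.7 and 52.6 FPKM in ethanol WT and 21.0, 25.0, 22.7 and 24.1 in ethanol Aldh2-/- livers, with no overlap (-1.17 ± 0.15, adjusted p = 0.000403). Its pair-fed libraries read 30.5, 25.9 and 30.2 in WT and 34.3, 35.5 and 44.7 in Aldh2-/- livers and were not called apart (0.39 ± 0.14, adjusted p = 0.0708). Slc35d1, a carrier of UDP-glucuronic acid into the endoplasmic reticulum, where UGT enzymes work, was lower under ethanol by the same test (-0.83, adjusted p = 0.000782).

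Of 16 tested genes of glutathione supply and breakdown, 8 were lower and 1 higher in ethanol Aldh2-/- livers (median -0.37). Gclc, the catalytic subunit of the enzyme that starts glutathione synthesis, read 26.9, 46.1, 38.9, 55.9 and 44.9 FPKM in ethanol WT and 16.8, 20.7, 17.4 and 14.6 in ethanol Aldh2-/- livers, with no overlap (-1.21 ± 0.19, adjusted p = 0.000965). In pair-fed livers Gclc read 45.3, 52.7 and 40.0 in WT and 73.5, 63.7 and 59.8 in Aldh2-/- livers. Ggct, which breaks down gamma-glutamyl peptides, was lower under ethanol (-0.72, adjusted p = 0.000588) and higher under pair-feeding (0.76, adjusted p = 0.00942). The gene called higher under ethanol was Ggt5, a gamma-glutamyltransferase (0.72, adjusted p = 0.00294). Under pair-feeding 6 of 15 were higher and 2 lower in Aldh2-/- livers (26.0% and 2.41% of all genes), and 1 higher and 2 lower under median-ratio or quantile scaling. The lower genes before rescaling were Cth, which makes cysteine (-1.92, adjusted p = 0.00491), and Oplah (-0.64, adjusted p = 0.0127). Of 10 tested genes for PAPS and sulfate, 3 were higher and 3 lower under ethanol (21.5% and 15.7% of all genes), among them the sulfate carrier Slc26a1 (-1.11, adjusted p = 0.00160) and Bpnt1, which clears the spent donor (-0.76, adjusted p = 0.0157). Under pair-feeding 3 of these were called higher, near the share over all genes, including Papss1, which makes PAPS (0.69, adjusted p = 0.0148). Under median-ratio or quantile scaling limma called 0 of the 10 (2 were higher at an unadjusted p under 0.05 with either scaling, and 1 was lower under quantile scaling).

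Of 16 other conjugation enzymes tested, 6 were lower and 1 higher in ethanol Aldh2-/- livers. Inmt, a methyltransferase of indoles, was lower under ethanol (-1.88, adjusted p = 0.000233) and under pair-feeding (-1.49, adjusted p = 0.0133). Nnmt, which methylates nicotinamide, was higher under ethanol (1.75, adjusted p = 0.000794) and lower under pair-feeding (-1.52, adjusted p = 0.00604). Baat, which joins bile acids to taurine or glycine, was lower under ethanol (-0.79, adjusted p = 0.00136). Among 12 tested transporters of conjugates, 2 were higher and 3 lower (21.5% and 15.7% of all genes), with the uptake carriers Slco1b2 (-0.86, adjusted p = 0.00239) and Slc10a1 (-0.71, adjusted p = 0.00709) lower and Abcc5 higher (0.50, adjusted p = 0.00440).

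Of 20 tested genes known to regulate conjugation enzymes, 5 were lower and 2 higher in ethanol Aldh2-/- livers, against 15.7% and 21.5% of all genes. Ppara, a nuclear receptor for fatty acids, was -1.33 ± 0.18 (adjusted p = 0.000499), and Cebpa, a hepatocyte transcription factor, -1.01 ± 0.23 (adjusted p = 0.00621). Ghr, the growth hormone receptor, was -1.06 ± 0.17 (adjusted p = 0.00131). Rxra, the partner of many nuclear receptors, was -0.47 (adjusted p = 0.0187), and the glucocorticoid receptor gene Nr3c1 -0.36 (adjusted p = 0.0288). Cux2, a transcription factor known as female-predominant in mouse liver, was higher (1.64 ± 0.31, adjusted p = 0.00237), and so was Ahr, the receptor for dioxin-like compounds (0.62, adjusted p = 0.00355). The receptor genes Nr1i3 for CAR (-0.04, adjusted p = 0.918) and Nr1i2 for PXR (-0.35, adjusted p = 0.0861) were not called. Nor were Nfe2l2, which encodes the antioxidant factor NRF2 (-0.02, adjusted p = 0.944), and its inhibitor Keap1 (-0.14, adjusted p = 0.333). Nr1h4 (-0.42), Esr1 (0.25), Nr0b2 (-0.66), Stat5b (0.15), Onecut1 (-0.41), Arnt (0.10), Hnf4a (0.07) and Bcl6 (0.03), given as log2 differences, were not called either. Under pair-feeding 3 of the 20 were called higher, a smaller share than the 26.0% of all genes: Keap1 (0.55, adjusted p = 0.0160), Nr3c1 (0.48, adjusted p = 0.0236) and Nfe2l2 (0.74, adjusted p = 0.0491). Under median-ratio or quantile scaling limma called 0 of them (1 was higher at an unadjusted p under 0.05 with either scaling, and 2 and 3 were lower). Of 16 tested genes commonly read as targets of such factors, 5 were higher and 6 lower under ethanol. Hmox1, a haem-degrading enzyme induced by oxidative stress, was 2.15 (adjusted p = 0.000929), and Tiparp, a target of AHR, 1.38 (adjusted p = 0.000734). Cyp4a14, a target of PPARA, was -1.36 (adjusted p = 0.000942), and Cyp2b9, a cytochrome P450 known as female-predominant, -2.67 (adjusted p = 0.000921).

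Promoter windows from RefSeq (GRCm38.p6, 250 bases before to 50 after a start site) were found for 51 members, 62 windows in all. The core of the antioxidant response element, TGACNNNGC on either strand, was in 3 of 28 Gst windows (10.7%), 0 of 17 Ugt and 0 of 17 Sult windows, against 12.4% of 32851 windows of all genes. The 3 matches are shown for Gsta3, Gstm5 and Gstm7, with the motif in capitals and 10 bases on either side. They are descriptions, and nothing is drawn from them about binding.
Gsta3, chr1:21240454-21240482, plus strand: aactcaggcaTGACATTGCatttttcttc
Gstm5, chr3:107895802-107895830, plus strand: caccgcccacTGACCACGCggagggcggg
Gstm7, chr3:107931725-107931753, minus strand: tctgaagaccTGACAAAGCgaagccaatc
The 3 genes did not share a pattern under ethanol, where the genotype difference was -1.01 for Gsta3, -0.33 for Gstm7 and 0.21, not called, for Gstm5. The aryl hydrocarbon receptor core GCGTG on either strand was in 2 of 17 Ugt, 4 of 17 Sult and 7 of 28 Gst windows, against 32.4% of all windows.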

How the data were processed

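Liver RNA was sequenced in 15 samples. Reads were handled with fastp, HISAT2 and HTSeq on mm10, per the submitters' processing notes, and versions are not given in the sources used here. The authors deposited FPKM values in 1 table for each diet. The tables hold no counts, and how reads of shared exons were counted is not given in the sources used here. Here FPKM + 1 was taken to log2 and genes averaging 0.5 FPKM or more over the libraries fitted were tested with limma 3.58.1 (lmFit, eBayes with trend, R 4.3.3), with Benjamini-Hochberg adjustment over all genes and calls at 0.05. Genotype comparisons used the 2 groups of 1 table, and diet comparisons and the interaction 1 fit of all 15 libraries. The pseudocount shrinks the changes of low genes. The procedure was tested on simulated data. Values in every library were set for up to 7 called members per direction and comparison with the largest change whose groups did not overlap and whose higher group averaged 2 FPKM or more, for the 3 most abundant of each family and for a panel of 15. Any member could be named, and those outside these sets were given such values after their values were seen. Of the other lists, up to 4 genes with the smallest p per comparison and the regulators were named, beside counts, except some genes that are not reported here. Members and lists were chosen with earlier results of these data known. The description numbers of the samples, which are not the library numbers used here, were checked for pairing and did not pair the samples. The replicate block is a fit with the description number as a covariate. Sequence overlap was counted in words of 50 bases in GENCODE vM21 coding sequences. Alternatives were the pseudocount, filter, scaling, replicate block, the set of groups fitted and leaving out libraries. Counts of the other lists under rescaling were added after the data were seen. Protein sequences were not used here.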

Additional observations from a re-analysis of the deposited data

Results flagged for a closer look

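For the 45 members that averaged 0.5 FPKM or more, the highest and lowest value of each ethanol group was set against the others by its gap as a share of the whole range, and 10 of 90 groups of values held one that stood apart. Chance would do this in about 5% of the groups tested if values were independent and normally distributed. That was not checked for these FPKM values, and the genes share libraries and in part sequence. Ethanol WT 5 was the highest of its group for Sult1d1 (159.8 FPKM, next 84.3), Sult1e1 (2.12, next 0.434), Sult2a1 (59.9, next 9.68) and Sult2a2 (184, next 41.8). Ethanol Aldh2-/- 89 was the highest for Gstm3 (665 FPKM, next 252), Sult2a1 (2.27, next 0.431) and Sult2a2 (15.9, next 2.79). Ethanol Aldh2-/- 96 was the highest for Ugt1a9 (16.4 FPKM, next 2.54) and Ugt2b35 (19.2, next 12.0). Ethanol WT 5 was the lowest of its group for Ugt3a2 (58.6 FPKM, next 116).

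The genotype difference under ethanol minus that under pair-feeding was called for 23 members by limma with Benjamini-Hochberg adjustment over all genes, on the log2 scale. Among Ugt genes it was below 0 for Ugt1a1 (-2.90), Ugt1a5 (-1.34), Ugt1a6a (-1.68), Ugt1a6b (-2.47), Ugt2b34 (-1.10), Ugt2b35 (-1.83), Ugt2b36 (-0.67), Ugt2b5 (-0.78), Ugt3a1 (-1.87) and Ugt3a2 (-1.36). Among Sult genes it was below 0 for Sult1b1 (-0.55) and Sult1c2 (-1.11), and above 0 for Sult1e1 (3.88). Among Gst genes it was below 0 for Gsta3 (-1.48), Gsta4 (-0.97), Gstm4 (-1.89), Gstm6 (-0.89), Gstm7 (-0.68), Gstp3 (-0.71), Gstt1 (-0.45) and Gstz1 (-0.54), and above 0 for Gstk1 (0.49) and Gstm2 (1.19). Of these 23, 7 were called in every alternative that tested them, namely Gsta3, Gsta4, Gstm4, Sult1c2, Sult1e1, Ugt2b34 and Ugt2b35. Sult1c2 was tested in 22 alternatives and the others in 23.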

How the results depend on the processing

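Of the members called, 17 of 28 in the ethanol genotype comparison, 2 of 12 in the pair-fed one (Gsta2 and Gstp3), 17 of 27 in the WT diet comparison, 21 of 24 in the Aldh2-/- diet comparison and 7 of 23 in the interaction were called in every alternative that tested them, and no call changed sign. The pair-fed count of 12 was 3 with no filter on low values, 7 under median-ratio rescaling and 6 under quantile normalization. Calls over all genes were 3162 of 11138, then 1103 of 21885, 636 of 11127 and 648 of 11142 in the same order. The interaction count of 23 was 14 with no filter and 15 under quantile normalization (4134 of 11157, 3795 of 23509 and 3089 of 11157 over all genes). With 1 library left out at a time the counts ran from 19 to 29 under ethanol between genotypes, from 2 to 11 under pair-feeding, from 19 to 28 for diet in WT, from 22 to 26 for diet in Aldh2-/- livers and from 14 to 24 for the interaction. Counts over all genes ran from 3175 to 4736, 294 to 2870, 3481 to 4998, 4211 to 5455 and 3135 to 4644, respectively. Rescaling moved the share of calls that were higher from 58.3% to 14.3% (median-ratio), 16.7% (quantile) or 37.5% (mitochondrial genes removed) under pair-feeding, and from 13.0% to 31.3%, 33.3% or 21.1% in the interaction. Over all genes the pair-fed calls were 2894 higher and 268 lower, then 258 and 378 (median-ratio) and 300 and 348 (quantile). The interaction calls were 899 higher and 3235 lower, then 1379 and 1781 (median-ratio) and 1398 and 1691 (quantile). With mitochondrial genes removed this split was not counted over all genes. The causes were not tested.

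Libraries with the same description number deviated together by r of -0.0865 to 0.246 under ethanol and -0.0248 to 0.0294 under pair-feeding. These numbers were therefore not taken to pair samples. With the description number as a block, 29 members were called under ethanol, 11 under pair-feeding, 19 for diet in WT, 24 for diet in Aldh2-/- livers and 20 for the interaction. Over all genes the block gave 3120 of 11013, 2912 of 11138, 3204 of 11157, 4836 of 11157 and 3658 of 11157 calls. Without the block these were 4098, 3162, 4584, 5231 and 4134. In the WT diet comparison 94.7% of the members called with the block were higher, against 81.5% without it. The split over all genes under the block was not counted. Leaving out both ethanol WT 5 and ethanol Aldh2-/- 90 gave 27, 27, 26 and 25 calls in the comparisons that hold them. Calls over all genes were then 4315 of 10905, 5149 of 11118, 5536 of 11118 and 4425 of 11118. Read counts are not held in these tables, so the depth behind low FPKM values is known only relative to other libraries.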
